A study of Mus musculus with 10 samples.

Results

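The genes described here are 33 mouse genes of germ cells and pluripotent cells, many of which are known to be kept silent in somatic cells by methylation of their promoters. They were taken by name from a list of gene symbols, which was chosen with earlier results of these data known. Shares and ranks of the 33 genes beside those of all genes therefore describe the list and do not test it. The probe sets annotated to 1 such symbol alone were averaged per gene. All 33 of the 33 listed genes were measured, among 18193 genes on the array. They were covered by 39 probe sets, with 1 probe set for 28 of the genes and several for 5 of them (Asz1, Brdt, Dazl, Dmc1 and Stk31).

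Methyl groups on cytosines of CpG dinucleotides are copied to the new DNA strand by Dnmt1 with the help of Uhrf1, and dense methylation of a promoter is linked with a silent gene. Many genes of germ cells have promoters that are rich in CpG and are methylated in the embryo when somatic tissues form, so that they stay silent in cells such as keratinocytes. 5-azacytidine (5-AZA) is built into nucleic acids and traps the DNA methyltransferases, and methylation is then lost as cells divide.

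The arrays came from primary keratinocytes of FVB mice, taken at an age of 1 day and grown in culture. The groups were 2 samples of undifferentiated keratinocytes kept in low calcium medium, 4 of differentiated keratinocytes given high calcium medium for 2 days, 2 of differentiated keratinocytes expressing A-C/EBP, a dominant negative protein that blocks DNA binding by the C/EBP family, and 2 of differentiated keratinocytes treated with 5-AZA. A-C/EBP was expressed in keratinocytes of transgenic mice under tetracycline control and was induced by removing doxycycline. Whether the differentiated control cultures carried the transgene and had been given doxycycline is not stated, and the sources differ on when 5-AZA was added. Nor is it stated whether replicates were separate cultures. The spread that enters the p-values is that between the samples at hand and may be technical.

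Values are RMA values, which are on a log2 scale, so that a difference of 1 is a doubling of the measured mRNA level. The median probe set of the 10 arrays lay between 4.64 and 4.78, and replicate arrays correlated at r = 0.990 to 0.996 over genes, which are not independent replicates. All 10 keratinocyte markers, such as Krt5 and Krt14, were above the median probe set in all 10 arrays. So were 6 of 7 melanocyte markers, 3 of 7 fibroblast markers and 2 of 6 markers of immune cells. The same held for 1 of 5 endothelial markers and 1 of 5 markers of testicular somatic cells. A-C/EBP replicate 2 stood apart from the other arrays, with Xist at 9.93 (5.84 to 8.27 in the others), the Y-linked gene Eif2s3y at 3.74 (5.40 to 6.03) and the mean of the hybridization controls at 11.34 (9.03 to 10.59).

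The 4 promoter windows below are shown because they belong to the 3 genes that rose with 5-AZA and to Ddx4, a germ cell gene whose window is richer in CpG than theirs and which did not pass the test. Each runs from 250 bases before to 50 bases after a start site in RefSeq (GRCm38.p6), is written 5′ to 3′ on the gene's own strand, and has its CpG dinucleotides in capitals. The Rhox5 window is chrX:37754358-37754657 (plus strand), that of Tcfl5 is chr2:180642642-180642941 (minus strand), that of Rpl39l is chr16:10169978-10170277 (plus strand) and that of Ddx4 is chr13:112652261-112652560 (minus strand).
Rhox5: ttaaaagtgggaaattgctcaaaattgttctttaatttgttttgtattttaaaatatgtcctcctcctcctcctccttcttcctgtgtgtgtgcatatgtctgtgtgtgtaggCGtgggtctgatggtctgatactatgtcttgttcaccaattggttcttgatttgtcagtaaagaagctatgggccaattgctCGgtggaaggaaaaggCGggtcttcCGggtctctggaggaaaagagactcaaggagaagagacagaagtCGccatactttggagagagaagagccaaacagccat
Tcfl5: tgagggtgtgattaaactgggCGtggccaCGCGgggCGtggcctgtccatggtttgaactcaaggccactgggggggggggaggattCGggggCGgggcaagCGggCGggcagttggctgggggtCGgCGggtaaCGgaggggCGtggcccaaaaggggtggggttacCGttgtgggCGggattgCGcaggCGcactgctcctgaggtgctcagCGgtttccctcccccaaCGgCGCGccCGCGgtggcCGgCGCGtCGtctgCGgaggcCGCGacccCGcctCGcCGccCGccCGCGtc
Rpl39l: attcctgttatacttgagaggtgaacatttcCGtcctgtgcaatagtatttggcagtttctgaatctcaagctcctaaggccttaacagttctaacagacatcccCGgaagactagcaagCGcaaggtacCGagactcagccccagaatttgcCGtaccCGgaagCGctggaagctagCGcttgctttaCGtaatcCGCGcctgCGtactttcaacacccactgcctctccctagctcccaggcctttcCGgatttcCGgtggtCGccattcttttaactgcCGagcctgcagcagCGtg
Ddx4: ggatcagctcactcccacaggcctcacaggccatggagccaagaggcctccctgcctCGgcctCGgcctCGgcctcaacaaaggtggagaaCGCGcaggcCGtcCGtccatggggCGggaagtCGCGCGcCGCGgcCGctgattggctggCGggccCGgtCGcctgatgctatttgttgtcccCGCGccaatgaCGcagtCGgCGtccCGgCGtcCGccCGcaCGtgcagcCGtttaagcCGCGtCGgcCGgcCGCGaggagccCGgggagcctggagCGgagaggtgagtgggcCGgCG
The Rhox5 window held 5 CpG, that of Rpl39l 17, that of Tcfl5 35 and that of Ddx4 38. The genes that rose thus had both sparse and dense CpG at their start sites.

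With 5-AZA, the mRNA levels of Tcfl5, Rpl39l and Rhox5 were higher than in differentiated keratinocytes, and no other gene of the 33 passed the test in either direction. Tcfl5, a basic helix-loop-helix transcription factor of spermatocytes, was 3.52-fold higher. Rpl39l, a copy of the ribosomal protein gene Rpl39 used mainly in testis, was 3.87-fold higher, and Rhox5, an X-linked homeobox gene of the reproductive tract and placenta, was 2.26-fold higher. In this comparison 31 of all 18193 genes rose, which is 0.17%, and 21 fell, which is 0.115%. At an unadjusted p under 0.05 the same limma test gave 3 of the 33 genes higher (6.01% of all genes) and 0 lower (3.08% of all genes). The median difference was 0.05 over the 33 genes and 0.04 over all genes on the log2 scale.

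The log2 level of Tcfl5 was 8.68 and 8.66 in the 5-AZA arrays and 6.86, 6.54, 6.84 and 7.15 in the differentiated arrays. It was 6.51 and 6.36 in the undifferentiated arrays and 5.99 and 5.19 in the A-C/EBP arrays. Both 5-AZA arrays were thus above all other arrays, and both A-C/EBP arrays were below all others. The difference between 5-AZA and differentiated arrays was 1.82 on the log2 scale (standard error 0.21, 95% interval 1.34 to 2.29, limma adjusted p = 0.0167, n = 2 against 4 arrays). Tcfl5 is measured by a single probe set of a type that can match several transcripts.

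The log2 level of Rpl39l was 8.48 and 8.73 in the 5-AZA arrays and 6.19, 6.45, 7.09 and 6.89 in the differentiated arrays. In the undifferentiated arrays it was 5.86 and 6.43, and in the A-C/EBP arrays 5.76 and 6.59. The 2 high values were those of 5-AZA, and the other conditions overlapped one another. The difference was 1.95 on the log2 scale (standard error 0.29, 95% interval 1.30 to 2.60, limma adjusted p = 0.0351), the second highest of all 18193 genes. Rpl39, which codes for the protein present in ribosomes of all tissues, was at 6.68 and 6.92 with 5-AZA and at 6.63 to 6.68 in the differentiated arrays, a difference of 0.15 (adjusted p = 0.704).

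The log2 level of Rhox5 was 5.86 and 5.31 in the 5-AZA arrays and 4.33, 4.40, 4.69 and 4.23 in the differentiated arrays. It was 4.16 and 4.40 in the undifferentiated arrays and 4.14 and 4.17 in the A-C/EBP arrays. Rhox5 was above the median probe set in the 5-AZA arrays and below it in all other arrays. The difference was 1.18 on the log2 scale (standard error 0.17, 95% interval 0.80 to 1.56, limma adjusted p = 0.0325).

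**Figure D1:**
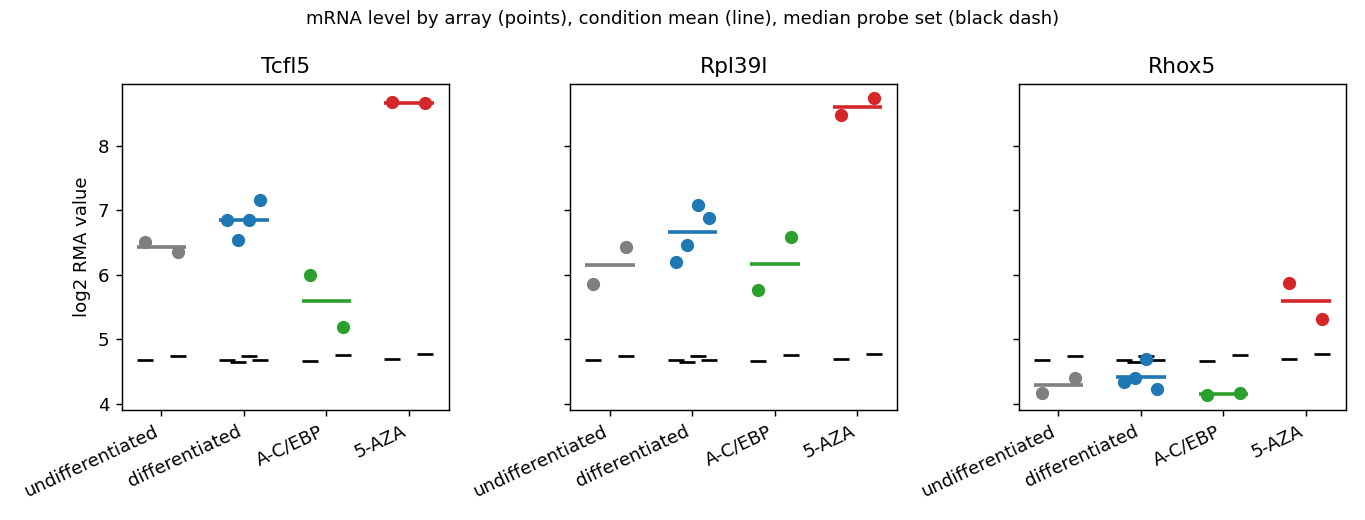
Log2 RMA values of Tcfl5, Rpl39l and Rhox5 in each of the 10 arrays (points) by condition, with the condition mean (coloured line) and the median probe set of each array (black dash). The 5-AZA arrays lie at 8.66 and 8.68 for Tcfl5, 8.48 and 8.73 for Rpl39l and 5.31 and 5.86 for Rhox5, above all other arrays of the same gene.

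Leaving out single arrays kept the direction of these differences but ended some of the calls. Tcfl5 stayed between 1.81 and 1.83 without differentiated replicate 1, 5-AZA replicate 1 or 5-AZA replicate 2, at adjusted p = 0.0716, 0.0822 and 0.103. Rpl39l was at 1.80, 1.89, 2.03, 2.08 and 1.83 without differentiated replicates 1, 2 and 4 and 5-AZA replicates 1 and 2 (adjusted p = 0.0914, 0.111, 0.0752, 0.126 and 0.256), and Rhox5 at 1.15, 1.17, 1.11, 0.90 and 1.45 without the same arrays (adjusted p = 0.101, 0.0972, 0.0784, 0.126 and 0.0612). The summed level of the melanocyte markers was 12.30 and 12.52 in the undifferentiated arrays and 12.10 and 12.80 with A-C/EBP. It was 12.57 and 12.60 in the 5-AZA arrays and 11.79 to 12.39 in the differentiated arrays. Of these markers, 6 of 7 were above the median probe set in all arrays. Between 5-AZA and differentiated arrays 0 of 7 passed the test, and 1 was higher at an unadjusted p under 0.05 (6.01% of all genes). The summed level of the fibroblast markers was 8.69 to 9.43 with 5-AZA against 8.18 to 9.16 in the differentiated arrays. Of these, 3 of 7 were above the median probe set in all arrays and 0 of 7 passed the test. Thy1 at 0.72 (limma adjusted p = 0.341) and Pdgfra at 0.30 (adjusted p = 0.440) were the 2 higher at an unadjusted p under 0.05 (6.01% of all genes). The summed level of the keratinocyte markers was 14.34 to 14.64 with 5-AZA against 14.32 to 14.68 in the differentiated arrays. Of these 10 genes 1 passed the test and fell, where 0.115% of all genes fell. It was the envelope protein gene Ivl, which fell by 1.38 (limma adjusted p = 0.0240). Its level was 10.72 to 11.11 in the differentiated arrays and 9.50 and 9.45 with 5-AZA. The part of the makeup or state of the cultures in these differences was not tested. In whole cultures, a gene turned on in a few cells and a small rise in all cells cannot be told apart.

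Over all 10 arrays, both 5-AZA arrays lay above the other 8 for 6 of the 33 genes, where 923 of all genes (5.07%) did so, and below them for 0 of the 33 (1.88% of all genes). The gap between the lower 5-AZA array and the highest other array was 1.50 for Tcfl5, the widest of all 18193 genes, 1.39 for Rpl39l, the next widest, and 0.62 for Rhox5, at rank 19. For the remaining 3 genes the gap was 0.05 for Hormad1 and 0.01 for Piwil1 and Piwil2.

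The other 30 genes differed by −0.14 to 0.26 between 5-AZA and differentiated arrays, and the smallest adjusted p among them was 0.588. Their 95% intervals reached from −0.42 to 0.61, and for 26 of the 30 they lay within 0.5 of no difference on the log2 scale. The 5-AZA arrays were above all 4 differentiated arrays for 9 of the 33 genes (11.2% of all genes) and below them for 0 of the 33 (5.15% of all genes). For the other 24 the arrays overlapped. The roles that follow hold only the 30 genes that did not pass, since the 3 that rose were set apart as a group of their own. That no gene of a role passed was thus fixed by the grouping.

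**Figure D2:**
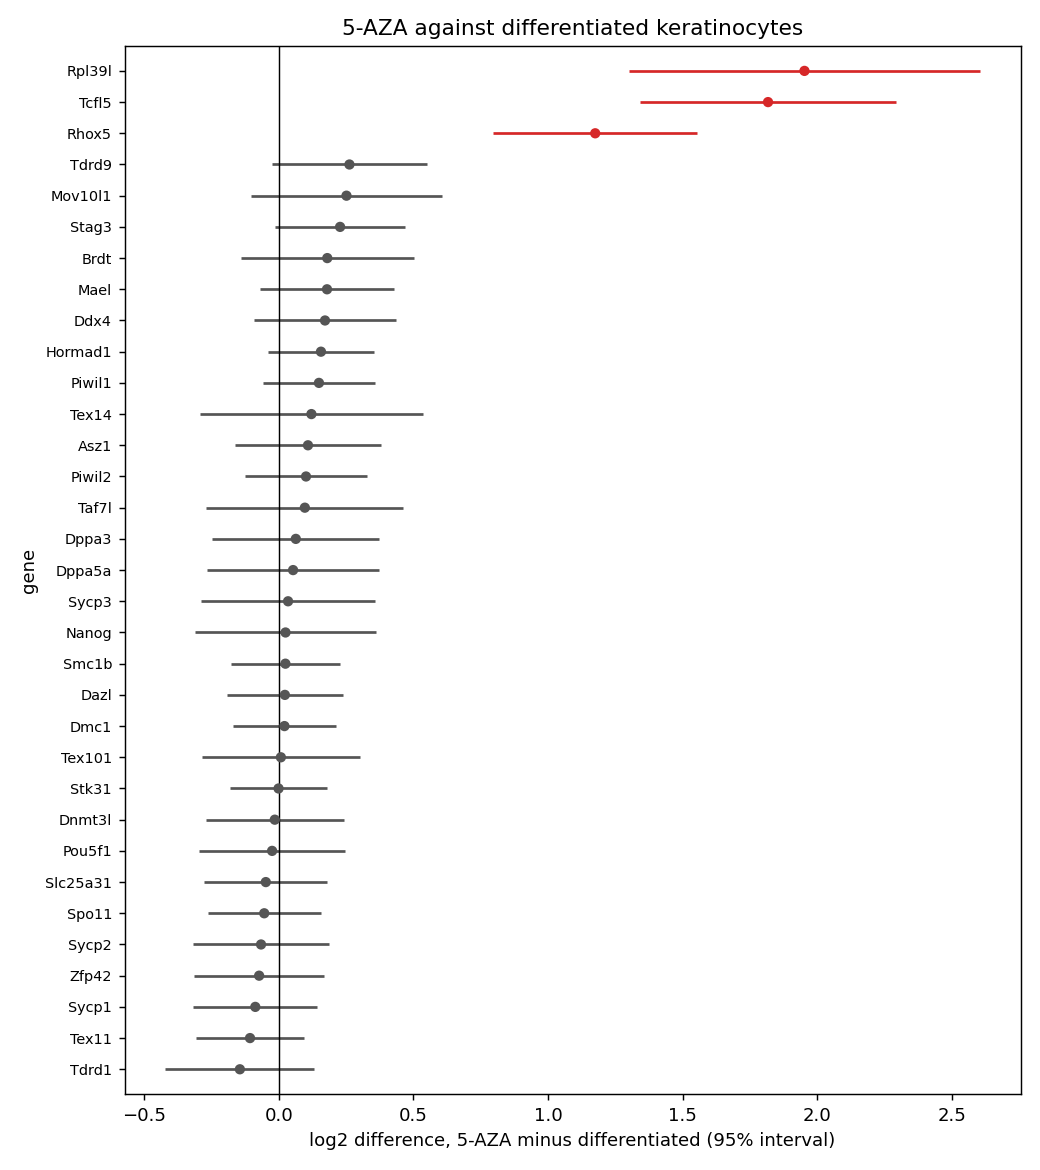
Difference in mean log2 RMA value between the 2 5-AZA and the 4 differentiated arrays for each of the 33 genes, with its 95% interval, in red for genes that passed the test at an adjusted p under 0.05. Rpl39l at 1.95, Tcfl5 at 1.82 and Rhox5 at 1.18 stand to the right, and the other 30 lie between −0.14 and 0.26.

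In the piRNA pathway, which silences transposons in germ cells through small RNAs bound by Piwi proteins, 0 of 8 genes passed the test, and their differences ranged from −0.14 (Tdrd1) to 0.26 (Tdrd9). Tdrd9, a helicase with a Tudor domain, was at 4.74 and 4.65 with 5-AZA and at 4.29, 4.44, 4.63 and 4.37 in the differentiated arrays, a difference of 0.26 (standard error 0.13, limma adjusted p = 0.605). It was at 4.38 and 4.75 in the undifferentiated arrays and at 4.50 and 4.53 with A-C/EBP. The 5-AZA arrays were thus no higher than the upper undifferentiated array.

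Mael, a protein of the nuage where piRNAs are made, was at 3.11 and 3.25 with 5-AZA and at 2.89, 2.99, 3.04 and 3.08 in the differentiated arrays. The difference was 0.18 (standard error 0.11, adjusted p = 0.698), and the other 4 arrays of Mael ran from 2.85 to 3.12. Piwil1, a Piwi protein of spermatocytes and spermatids, was at 4.11 and 4.00 with 5-AZA and at 3.95, 3.91, 3.96 and 3.80 in the differentiated arrays, a difference of 0.15 (standard error 0.09, adjusted p = 0.695). The other Piwi gene, Piwil2, differed by 0.10, the helicase gene Mov10l1 by 0.25, Asz1 by 0.11 and Ddx4, the vasa helicase, by 0.17. Ddx4 ran from 2.68 to 3.09 over the 10 arrays, and its 5-AZA values of 3.08 and 2.89 lay within the range of the other conditions.

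Among 9 genes of meiotic chromosomes, again none passed the test, with differences from −0.11 (Tex11) to 0.23 (Stag3). Stag3, a subunit of the meiotic cohesin, was at 3.66 and 3.81 with 5-AZA and at 3.38, 3.52, 3.52 and 3.59 in the differentiated arrays, a difference of 0.23 (standard error 0.11, limma adjusted p = 0.588). Its 2 undifferentiated arrays, at 3.72 and 3.99, were as high as those with 5-AZA, and its A-C/EBP arrays were the lowest at 3.23 and 3.28. Hormad1, a protein of unsynapsed chromosome axes, was at 3.09 and 3.04 with 5-AZA and at 2.78, 2.95, 2.96 and 2.94 in the differentiated arrays. The difference was 0.16 (standard error 0.09, adjusted p = 0.667), and the other 4 arrays of Hormad1 lay between 2.88 and 2.99. The genes of the synaptonemal complex, Sycp1, Sycp2 and Sycp3, differed by −0.09, −0.07 and 0.03. Spo11, which makes the breaks that start recombination, differed by −0.05, and the recombinase gene Dmc1 by 0.02, as did the cohesin gene Smc1b.

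Of 6 other genes of male germ cells, none passed. The differences ran from −0.05 for Slc25a31, a mitochondrial carrier of ADP and ATP, to 0.18 for Brdt, a bromodomain protein of spermatids. The probe sets of Brdt did not sit at 1 level, since 2 of them were below the median probe set in all 10 arrays and the third in 2 of them. Tex14, which stabilises the bridges between germ cells, differed by 0.12, the transcription factor subunit gene Taf7l by 0.10, the surface protein gene Tex101 by 0.01 and Stk31 by 0.00. Dazl, an RNA-binding protein needed for germ cell development, differed by 0.02, with 3.39 and 3.34 in the 5-AZA arrays and 3.28 to 3.47 in the differentiated arrays. Dnmt3l, the cofactor of the de novo methyltransferases in germ cells, differed by −0.01.

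None of the 5 genes of pluripotent cells passed. Pou5f1 and Nanog, core transcription factors of embryonic stem cells, differed by −0.02 and 0.03, and Zfp42 by −0.07. Nanog had its lowest and its highest value in the 2 5-AZA arrays, 3.31 in replicate 1 and 2.78 in replicate 2, so the spread within the condition exceeded its difference from other conditions. Dppa3, a protein that protects methylation in the early embryo, differed by 0.06. Dppa5a was at 5.46 and 5.20 with 5-AZA and at 5.10, 5.14, 5.53 and 5.34 in the differentiated arrays, a difference of 0.05 (standard error 0.14, limma adjusted p = 0.950). It was at 5.35 and 5.24 in the undifferentiated arrays and at 5.41 and 5.16 with A-C/EBP, so that all 4 conditions overlapped.

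Most of the genes were dim on every array. Of the 33 genes, 27 (81.8%) were below the median probe set in all 10 arrays, compared with 35.5% of all 18193 genes. Tcfl5, Rpl39l and Dppa5a were above it in all 10 arrays. The remaining genes were Rhox5, which was above it in the 2 5-AZA arrays, Tdrd9, in undifferentiated replicate 2 and 5-AZA replicate 1, and Mov10l1, in A-C/EBP replicate 2 and 5-AZA replicate 2. Asz1 and Brdt counted as dim by their mean, although 1 probe set of Asz1 was above the median probe set in all 10 arrays and 1 of Brdt in 8 of them. Counted by array, 28 of the 33 genes were below the median probe set in each 5-AZA array and 29 or 30 in each of the other 8 arrays.

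The 27 dim genes were Dazl, Ddx4, Mael, Sycp1, Sycp2, Sycp3, Tex101, Asz1, Dnmt3l, Stk31, Piwil1, Piwil2, Tdrd1, Hormad1, Smc1b, Stag3, Spo11, Dmc1, Taf7l, Tex11, Tex14, Zfp42, Pou5f1, Nanog, Dppa3, Slc25a31 and Brdt. Their values ran from 2.68 to 4.72. The median of the 27 condition means was 3.49 in undifferentiated keratinocytes, 3.47 in differentiated keratinocytes, 3.43 with A-C/EBP and 3.49 with 5-AZA, so the conditions were nearly level. A single gene of the 27 spanned 0.18 (Dmc1) to 0.76 (Stag3) over the 10 arrays, with a median of 0.40, and the same median was 0.38 over all genes that were below the median probe set in every array. Probe sets differ in brightness at the same amount of mRNA and the values carry no call of presence, so a value below the median does not show that a gene was not expressed. For dim probe sets a change in mRNA may also be compressed on this scale.

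**Figure D3:**
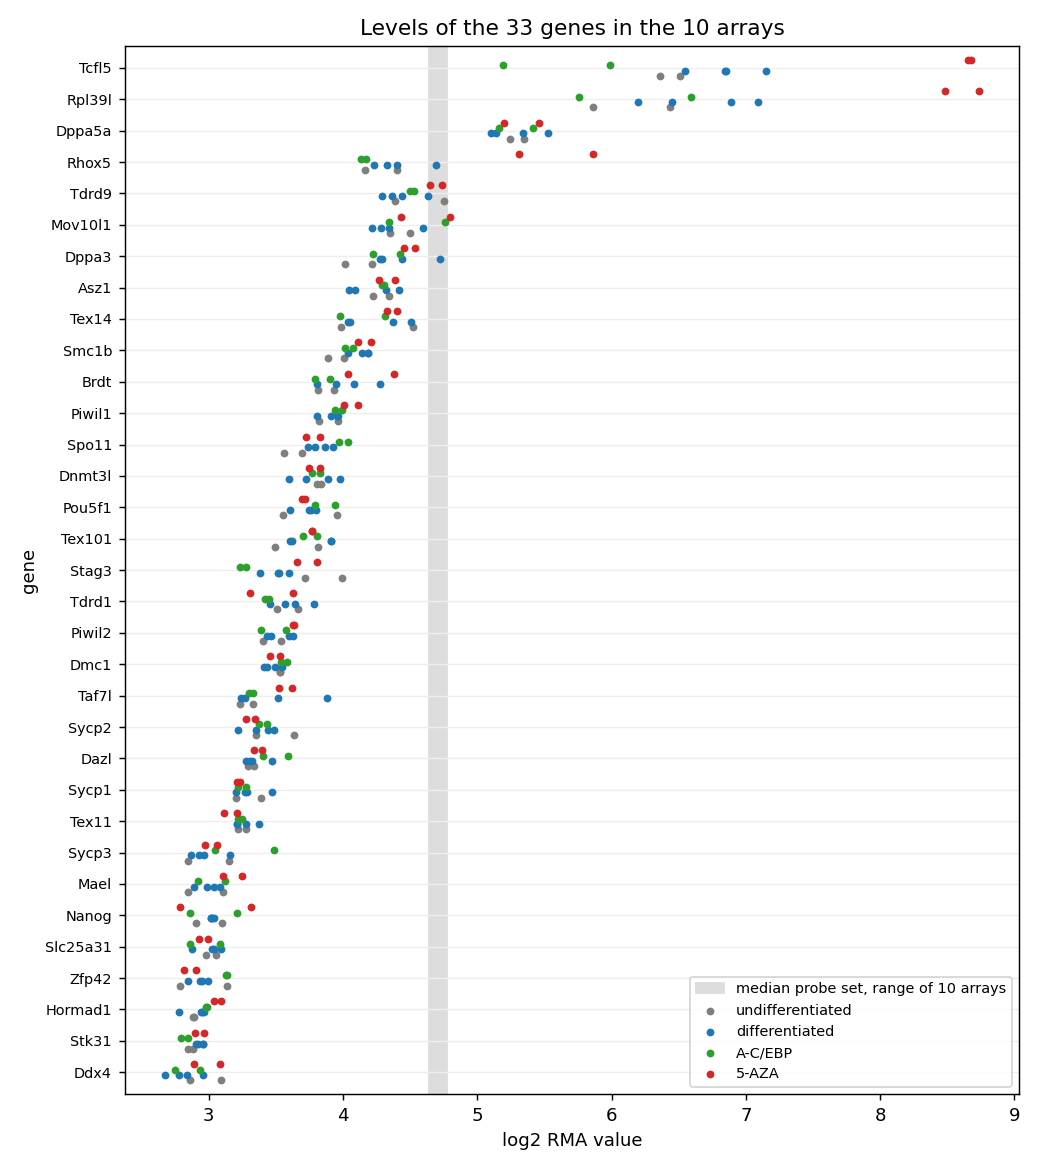
Log2 RMA values of the 33 genes in the 10 arrays, 1 row per gene in order of mean level and 1 point per array, coloured by condition. The grey band is the range of the median probe set over the arrays (4.64 to 4.78). Tcfl5, Rpl39l and Dppa5a lie to its right with all of their points, and 27 genes lie below the median of each array, where 1 point of Dppa3, at 4.72, falls within the band because the median of its own array was 4.74.

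The same genes rose when the 5-AZA arrays were set against the other conditions. These comparisons share the 2 5-AZA arrays, so they are not independent. They also hold more than 5-AZA, namely the expression of A-C/EBP in the first and the low calcium medium in the second. The part of each was not tested. Against A-C/EBP, 3 of the 33 genes rose and 0 fell, where 1.13% of all genes rose and 2.06% fell. Tcfl5 was higher by 3.08 (standard error 0.25, limma adjusted p = 0.000521), Rpl39l by 2.44 (standard error 0.34, adjusted p = 0.00595) and Rhox5 by 1.44 (standard error 0.20, adjusted p = 0.00551). At an unadjusted p under 0.05, 4 of the 33 genes were higher (7.71% of all genes) and 0 lower (7.73% of all genes). Without 5-AZA replicate 2, Rpl39l was higher by 2.31 at an adjusted p of 0.0562. Stag3 came next at 0.48 (adjusted p = 0.0763).

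Against undifferentiated keratinocytes 3 of the 33 genes rose and 0 fell, where 7.42% of all genes rose and 8.72% fell. Rpl39l was higher by 2.46 (standard error 0.34, limma adjusted p = 0.000947), Tcfl5 by 2.23 (standard error 0.25, adjusted p = 0.000337) and Rhox5 by 1.31 (standard error 0.20, adjusted p = 0.00156). At an unadjusted p under 0.05, 4 were higher (13.4% of all genes) and 0 lower (13.5% of all genes). The other 30 genes differed by −0.18 to 0.38, and the highest of these was Dppa3 (adjusted p = 0.158).

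With A-C/EBP, the mRNA level of 1 of the 33 genes fell relative to differentiated keratinocytes and 0 rose, where 0.572% of all genes fell and 1.49% rose. The gene was Tcfl5, which was lower by 2.39-fold, a difference of −1.26 (standard error 0.21, 95% interval −1.73 to −0.78, limma adjusted p = 0.0186). At an unadjusted p under 0.05, 0 of the 33 genes were higher (8.05% of all genes) and 2 lower, Tcfl5 and Stag3 (5.52% of all genes). The A-C/EBP values of Tcfl5 were 5.99 in replicate 1 and 5.19 in replicate 2, the array that stood apart in Xist and in the hybridization controls. Without that array the difference was −0.86 at an adjusted p of 0.164. Rpl39l differed by −0.48 (adjusted p = 0.556) and Rhox5 by −0.26 (adjusted p = 0.601). This comparison and that of 5-AZA share the 4 differentiated arrays, so side by side Tcfl5 was at −1.26 with A-C/EBP and at 1.82 with 5-AZA, Rpl39l at −0.48 and 1.95 and Rhox5 at −0.26 and 1.18.

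Upon differentiation none of the 33 genes passed the test in either direction, where 6.64% of all genes rose and 9.14% fell. At an unadjusted p under 0.05, 1 of the 33 genes was higher (Dppa3; 11.1% of all genes) and 1 lower (Stag3; 14.7% of all genes). Of the genes that rose with 5-AZA, Rpl39l differed by 0.51 (adjusted p = 0.336), Tcfl5 by 0.41 (adjusted p = 0.274) and Rhox5 by 0.13. Stag3 had the smallest adjusted p, with a difference of −0.35 (standard error 0.11, limma adjusted p = 0.0555), and its 4 differentiated arrays (3.38 to 3.59) were all below its 2 undifferentiated arrays (3.72 and 3.99). With quantile normalization Stag3 passed the test at −0.34 (adjusted p = 0.0337).

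**Figure D4:**
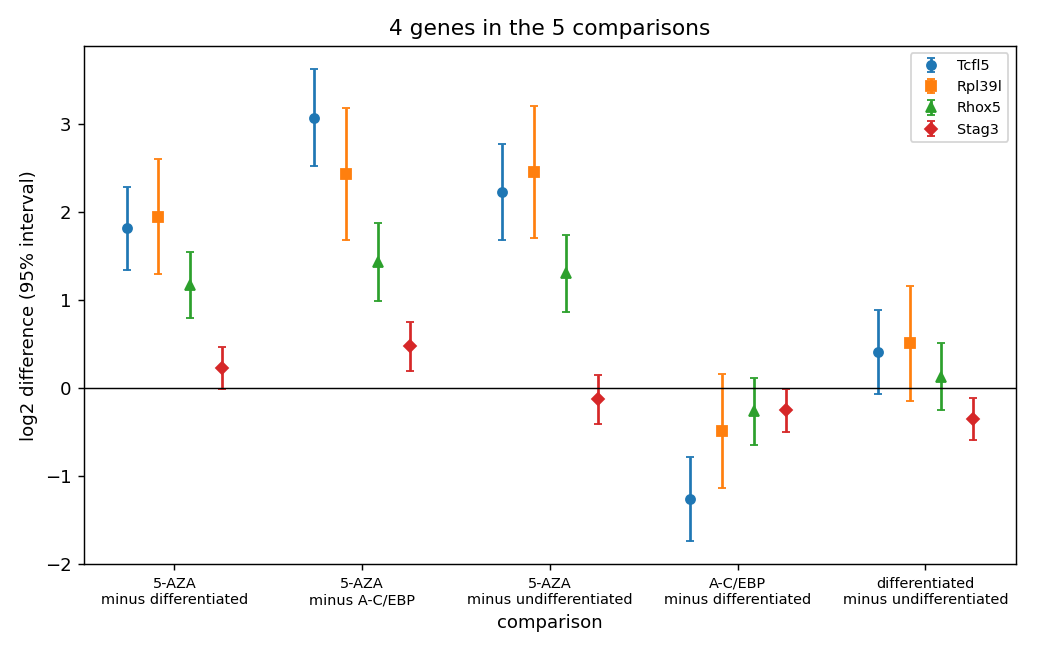
Differences in mean log2 RMA value with 95% intervals for Tcfl5, Rpl39l, Rhox5 and Stag3 in the 5 comparisons between conditions, which share arrays. Tcfl5, Rpl39l and Rhox5 are above 0 in the 3 comparisons of 5-AZA, by 1.18 to 3.08, and Tcfl5 is at −1.26 in the comparison of A-C/EBP with differentiated keratinocytes.

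Other genes of the same kind were looked at as well. Of 40 further germline genes on the array, 0 rose and 0 fell with 5-AZA relative to differentiated keratinocytes (0.17% and 0.115% of all genes). Their median difference was 0.05, beside 0.04 over all genes. At an unadjusted p under 0.05 limma gave 3 higher (6.01% of all genes) and 1 lower (3.08% of all genes). The 2 with the smallest p were Fthl17a and Tex19.1. Fthl17a, an X-linked germ cell gene related to ferritin heavy chain, was at 6.55 and 5.35 with 5-AZA and at 4.90, 4.50, 4.76 and 4.87 in the differentiated arrays, a difference of 1.19 (standard error 0.28, limma adjusted p = 0.162). Its 2 5-AZA arrays were above the other 8 (5.07% of all genes). It passed the test against A-C/EBP at 1.44 (limma adjusted p = 0.0441) and against undifferentiated keratinocytes at 1.40 (adjusted p = 0.0147). Of the 40 genes, 1 rose (1.13% of all genes) and 0 fell (2.06% of all genes) against A-C/EBP. Against undifferentiated keratinocytes 2 of the 40 rose (7.42% of all genes) and 2 fell (8.72% of all genes). Tex19.1, which acts against transposons in germ cells, was at 5.41 and 5.46 with 5-AZA and at 5.05, 4.79, 5.16 and 4.85 in the differentiated arrays, a difference of 0.47 (adjusted p = 0.242). Of 19 further pluripotency genes 0 passed. At an unadjusted p under 0.05, 2 were higher (6.01% of all genes) and 0 lower (3.08% of all genes). The 2 with the smallest p were Klf4 at 0.68 (limma adjusted p = 0.284) and Tcl1 at 0.21 (adjusted p = 0.537). Keratinocytes also express Klf4. Of the 19 genes, 1 rose (1.13% of all genes) and 0 fell (2.06% of all genes) against A-C/EBP. The gene that rose was Klf4, by 1.05 (limma adjusted p = 0.0394).

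Of 27 measured genes of the machinery that methylates DNA and silences germline genes, 24 were above the median probe set in all arrays. With 5-AZA relative to differentiated keratinocytes 0 rose and 0 fell. At an unadjusted p under 0.05, 1 was higher (6.01% of all genes) and 1 lower (3.08% of all genes). The 2 with the smallest p were Zbtb4, a protein that binds methylated DNA, at 0.38 (adjusted p = 0.229) and Pcgf6, a subunit of a Polycomb complex that represses germline genes, at −0.33 (adjusted p = 0.420). Against A-C/EBP, 0 of the 27 genes rose (1.13% of all genes) and 1 fell (2.06% of all genes) with 5-AZA. It was the de novo methyltransferase gene Dnmt3a, which was lower by 0.75 (limma adjusted p = 0.0495). Its mean was 6.39 with A-C/EBP, while 5-AZA at 5.64 and differentiated keratinocytes at 5.65 were level. Dnmt1, the maintenance methyltransferase that 5-AZA traps, was at 6.97 and 5.92 with 5-AZA and between 6.06 and 7.07 in the 4 differentiated arrays, so the conditions overlapped. In differentiated relative to undifferentiated keratinocytes 10 of the 27 genes fell and 0 rose (9.14% of all genes fell and 6.64% rose), among them Uhrf1 by −2.60 (adjusted p = 0.00223) and Dnmt1 by −1.31 (adjusted p = 0.0199).

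Promoter sequence was described for those of these genes that had a window. RefSeq promoter windows were matched for 28 of the 33 genes, in 36 windows of the length given above, and none was matched for Dppa3, Dppa5a, Piwil2, Spo11 and Tex11. The median window held 18.5 CpG, compared with 7 over all 32851 windows. At least 1 window with 10 or more CpG was found for 25 of the 28 genes (89.3%) and for 45.8% of all 27025 genes with a window. The exceptions were Nanog, Rhox5 and Dnmt3l, with 4, 5 and 6 CpG in their richest windows. Across the 28 genes, the genes that rose were at 5, 17 and 35 CpG, and genes with similar numbers, such as Asz1 and Taf7l at 17 and Stag3 at 30, differed by 0.11, 0.10 and 0.23 with 5-AZA.

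**Figure D5:**
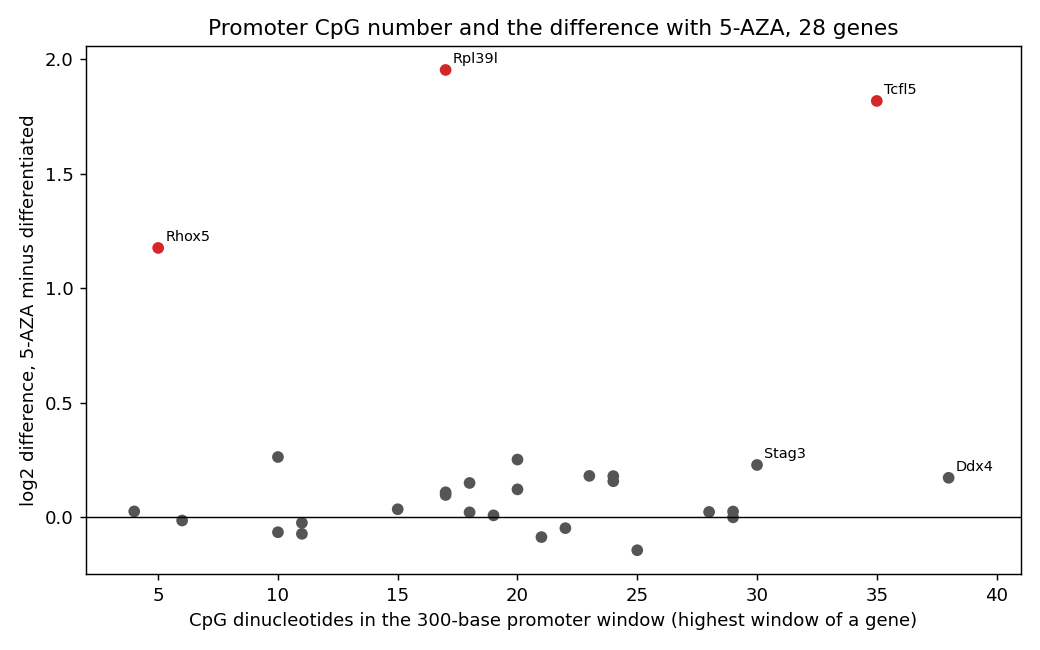
Number of CpG dinucleotides in the promoter window (the richest window of a gene) against the difference in log2 RMA value between 5-AZA and differentiated arrays for the 28 genes with a window, in red for genes that passed the test. The red points lie at 5 CpG (Rhox5), 17 CpG (Rpl39l) and 35 CpG (Tcfl5), and Ddx4 lies at 38 CpG with a difference of 0.17.

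The E-box CACGTG, the letters bound by dimers of Max and Mga, was found in the windows of 15 of the 28 genes (53.6%). The share was 8.09% of all genes with a window. Among windows with 10 or more CpG, it was in 17 of the 28 windows of these genes (10.9% of all such windows). These 28 windows belong to 25 genes. Some overlap, such as the 2 of Hormad1, so the same bases can count more than once. The genes that held the E-box were Brdt, Ddx4, Dnmt3l, Hormad1, Mael, Mov10l1, Piwil1, Slc25a31, Stag3, Stk31, Sycp1, Sycp3, Taf7l, Tdrd1 and Tdrd9. Among roles, it was found in 6 of 7 genes of the piRNA pathway, 4 of 7 of meiotic chromosomes and 4 of the 6 other genes of male germ cells. It was not found in the windows of Rhox5, Tcfl5 and Rpl39l. In the Ddx4 sequence above it stands as caCGtg, in the stretch before the start site. Of 35 further germline genes with a window, 6 (17.1%) held it.

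The motif TCCCGC, a core of E2F sites, was found on either strand in 11 of the 28 genes (39.3%; 22% of all genes), and the GC box CCGCCC in 17 (60.7%; 38.2% of all genes). Tcfl5, Ddx4, Mael and Stag3 were among the genes that held both. Among windows with 10 or more CpG, TCCCGC was in 12 of the 28 windows of these genes (40.3% of all such windows). The GC box was in 17 of those 28 (69.8% of all such windows). They are the same 28 windows of 25 genes as above, some of which overlap. The full CREB site TGACGTCA was found in 0 of the 28 genes (2.03% of all genes). These are counts of letters in a short window, on both strands, chosen with the levels known. All 4 motifs contain a CpG, and each was more frequent among the CpG-rich windows than among all windows. A match is not evidence that a protein was bound there.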

How the data were processed

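mRNA was measured on Affymetrix mouse genome arrays in 10 samples. Per the labels, the deposited log2 values came from RMA, run by the authors in Affymetrix Expression Console with no version stated, and were not normalized again. RMA carries no call of presence, so no level marks a gene as not expressed. The platform annotation gives 1 gene symbol to 34945 of the 45101 probe sets, several to 932 and none to 9224, array controls counted among the last. Those with 1 symbol entered as a mean over the probe sets of the gene. The number of arrays limits the precision.

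The members and lists were chosen with earlier results of these data known, and the roles and motifs after the levels were seen. All 10 arrays entered 1 limma 3.58.1 fit (R 4.3.3) with 1 coefficient for each condition and 6 residual degrees of freedom. P-values were two-sided and adjusted by the Benjamini-Hochberg method over 18193 genes, with calls made at an adjusted p under 0.05. No filter on low values was used. Without the dimmest 40% of genes, 3 of the 33 genes stay in the test (Tcfl5, Rpl39l and Dppa5a).

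All 33 genes are accounted for. Values by array are given for genes that passed in a comparison, that were above the median probe set in all arrays of a condition, or that were among the 8 largest differences between 5-AZA and differentiated arrays with no overlap of arrays. Of the other lists, up to 6 genes that passed with 5-AZA are named, and otherwise the 2 with the smallest p. Dnmt1, Dnmt3a, Uhrf1, Mov10l1, Piwil2, Ddx4, Dazl and Nanog are given by array or by value beyond this rule and were chosen after their values were seen. Alternatives concerned the scaling (median centring or quantile normalization), the probe sets (the brightest of each gene, or without those that can match several transcripts), dim genes, the prior spread (an intensity trend), a replicate block, the arrays in the fit (the compared conditions alone, part of the differentiated arrays, each array left out), the hybridization controls as a covariate and a t-test of each gene (two-sided, pooled variance). The fit was tested on simulated data. Promoter sequences are those of RefSeq (GRCm38.p6). The chromatin, A-Fos and methylation data were not analysed here.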

Additional observations from a re-analysis of the deposited data

Results flagged for a closer look

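Hormad1, a protein of meiotic chromosome axes, was at 2.78 in differentiated replicate 1 and between 2.94 and 2.96 in the other 3 differentiated arrays. The gap was 0.880 of the whole range of the 4 arrays, above Dixon's 95% critical value for 4 values. This was the only one of 33 groups of 4 arrays in which a sample stood this far from the others, and chance gives about 1 in 20.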

How the results depend on the processing

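No member comparison changed direction where it had passed the test, and of 155 member comparisons that had not passed, 152 did not pass under any alternative that gave them a value either (20 to 22 each, of 22 run). Stag3 upon differentiation passed under 4 settings (quantile normalization, the intensity trend, the replicate block and the hybridization controls as a covariate, each with 1 member lower in place of 0), Stag3 in 5-AZA against A-C/EBP under 3 (the intensity trend at adjusted p = 0.0405, the replicate block at 0.0330 and the covariate at 0.0397) and Brdt against undifferentiated keratinocytes with its brightest probe set (0.85, adjusted p = 0.0410). For the remaining values below, the cause was not tested.

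Of all genes, between 5-AZA and differentiated arrays 13 rose and 11 fell with median centring, 34 fell with quantile normalization, 14 rose and 10 fell with the 2 conditions alone, and 47 rose and 33 fell with the hybridization controls as a covariate. With differentiated arrays 1 and 2 only, 7 rose and 10 fell and 1 member rose, and with arrays 3 and 4 only, 0 rose, 0 fell and 0 members rose (Tcfl5 1.67 at adjusted p = 0.216, Rpl39l 1.62 at 0.325, Rhox5 1.13 at 0.366). With median centring Rhox5 was at 1.13 (adjusted p = 0.0561). Against A-C/EBP 316 rose with quantile normalization and 28 rose and 68 fell with the 2 conditions alone, where Rhox5 was at an adjusted p of 0.0556. Between A-C/EBP and differentiated arrays 206 fell with quantile normalization, 67 fell with the 2 conditions alone, 428 rose with the covariate, 78 rose and 42 fell with differentiated arrays 1 and 2 (Tcfl5 −1.11), and 55 rose and 25 fell with arrays 3 and 4 (Tcfl5 −1.41, adjusted p = 0.0733), with 0 members lower in both. Without probe sets that can match several transcripts Tcfl5 has no value, so 0 members fell there. Upon differentiation 757 rose and 1106 fell with differentiated arrays 1 and 2.

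The t-test of each gene, adjusted, gave 0 genes and 0 members in either direction in the comparisons of 5-AZA and of A-C/EBP. Upon differentiation it gave 376 higher and 488 lower genes. At an unadjusted p under 0.05 this t-test gave 1207 genes and 4 members for 5-AZA against differentiated arrays.

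Leaving out single arrays, the genes that rose and fell numbered 1 to 33 and 1 to 24 for 5-AZA against differentiated arrays (0 to 3 members higher), 44 to 229 and 81 to 399 against A-C/EBP (2 to 3 members), 797 to 1476 and 830 to 1615 against undifferentiated arrays (3 members throughout), 47 to 265 and 7 to 142 for A-C/EBP (0 to 1 member lower) and 665 to 1452 and 770 to 1669 upon differentiation.

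Samples with the same replicate number correlated at 0.0931 to 0.430 in their deviations from the group means (12 pairs, 11 over 0.1). Those with different numbers correlated negatively, though with 2 arrays in a condition the deviations mirror each other. Xist was at 5.84 to 6.74 in replicates 1 and at 7.67 to 9.93 in replicates 2. The hybridization controls were at 9.03 to 9.99 and at 10.07 to 11.34. Whether the numbers mark samples handled together was not tested. Compared conditions share only 2 numbers, and the main fit did not treat the samples as paired, so any spread shared by number stays in its p-values. With a replicate block 213 genes rose and 185 fell for 5-AZA against differentiated arrays, 567 and 817 against A-C/EBP, 2026 rose against undifferentiated arrays, and 504 rose and 269 fell with A-C/EBP.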
